A study of Mus musculus with 2 samples.

Results

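The genes described here encode the mitochondrial ribosome and the Tim and Tom translocases that carry proteins into mitochondria, compared between cortical fiber cells and epithelial cells of the mouse eye lens. They were chosen by name alone: every probe whose 1 platform gene symbol began with Mrpl, Mrps, Timm or Tomm followed by a digit was taken. That gave 94 probes for 88 genes, of 19719 probes with a value on both arrays and 13709 named genes in all. They comprised 43 genes of the large ribosomal subunit, 25 of the small subunit, 12 of the inner membrane translocases and 8 of the outer membrane translocase. A probe shared between Mrps25 and a second gene was left out.

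Lenses of 5 mice aged 13 days were dissected by forceps into the capsule with its attached epithelium and the cortical fiber cells. Poly(A) RNA of each fraction was hybridized to 1 CodeLink array, so the comparison is 1 cortex array against 1 epithelium array. No genotype, strain or treatment is given for either group, and the sources used here do not say whether the 5 mice were pooled. The free-text sample description names fetal liver of wild-type embryos, whereas titles, source names and the design text all give lens. Neither tissue has a replicate array, so the values are described without a test.

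Mitochondria keep a small genome of their own, which encodes a few membrane subunits of the respiratory chain together with the RNAs needed to translate them. The proteins of the mitochondrial ribosome are encoded in the nucleus, made in the cytosol and imported. Most proteins enter through the Tom complex of the outer membrane. The Tim23 complex then passes those with a cleavable presequence to the matrix, the Tim22 complex inserts carrier proteins into the inner membrane, and small Tim proteins chaperone hydrophobic cargo across the intermembrane space. Lens epithelial cells hold mitochondria, while fiber cells degrade theirs together with their nuclei as they mature, so the cortex contains fibers both before and after organelle loss.

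The labelled tissues carried their markers. Of 11 fiber markers, such as crystallins, 10 passed the 3-fold rule given below towards cortex with the deposited scaling. With quantile normalization, loess or ribosomal protein centring 4 did, namely Crygd, Mip, Bfsp1 and Lgsn. All 8 markers of lens epithelium passed it towards epithelium in each of these scalings, although the centring cannot remove a call in that direction. Of 8 liver markers, 6 lay below the array median on both arrays, among them Afp and Apoa1, and Ahsg (185 in cortex, 16.9 in epithelium) was the exception with a high value. All 5 erythroid markers lay at or below 1.79. Markers of neighbouring tissue differed between the arrays. The summed intensity of 6 ciliary body markers was 12.7 in cortex and 134 in epithelium, most of it from Ptgds (7.54 and 123). Of these, 3 were called in epithelium and 1 in cortex, Opn3 (3.44 and 1.04). The sum of 7 pigment cell markers was 5.48 and 14.9, with Oca2 at 0.521 and 9.09. Of these, 2 were called in epithelium and 1 in cortex, Dct (1.97 and 0.210). The sum of 6 muscle markers was 19.9 and 1.42, most of it from Acta1 (17.1 and 0.741). The part of such tissue in the differences below was not tested. The values come from bulk RNA, in which fewer mitochondria-rich cells and less RNA per cell cannot be told apart.

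Values are deposited intensities, scaled so that each array's median was close to 1 (0.998 on both). Values under 0.5 of the median were raised to that floor before log2 was taken, and the brightest probe stood for each gene. Differences are log2 cortex minus log2 epithelium, so positive values mean higher in cortex. A gene was called higher in a tissue at a ratio of 3 or more, provided the brighter value reached its array median. The available measure of error is the spread between different probes of 1 gene, with a median SD of 0.59 and a pooled SD of 1.10 on the log2 scale over 558 genes. That spread compares different probes on the same arrays, so it does not measure variation between arrays or mice. It was taken over genes with more than 1 probe above the floor on both arrays.

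Few of the 88 genes differed by 3-fold. Mrpl37 and Timm50 were higher in cortex, and Mrps2, Tomm34, Mrps17 and Mrps16 were higher in epithelium. These 6 made up 6.82% of the members, against 17.6% of all 13709 genes. The split was 2 in cortex, where 9.41% of all genes were called, and 4 in epithelium, where 8.17% were. Restricted to genes with both values above the floor, the shares were 7.06% of 85 members and 23.4% of 8351 genes. Only Mrpl47, Mrps5 and Tomm20l lay at the floor on both arrays, so no difference can be given for them. Of the 85 measured members, 68 differed by less than 2-fold, and 20.0% differed by 2-fold or more in either direction, against 43.2% of the 8266 other genes measured on both arrays and 31.7% of all genes with values at the floor included. The interquartile range of the log2 difference was 1.12 in the members, from -0.60 to 0.52, and 1.70 in those other genes. The count depended on the scaling. It was 1 in cortex (Mrpl37) and 4 in epithelium after quantile normalization or loess on brightness, and 0 and 17 after centring on cytosolic ribosomal protein genes. Those 17 were 19.3% of the members, where 20.2% of all genes were called in epithelium. The centring moved the median of all measured genes from 0.03 to -0.89 (-0.11 with quantile normalization). Of all genes called, 53.5% were higher in cortex with the deposited scaling and 17.4% after that centring.

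**Figure D1:**
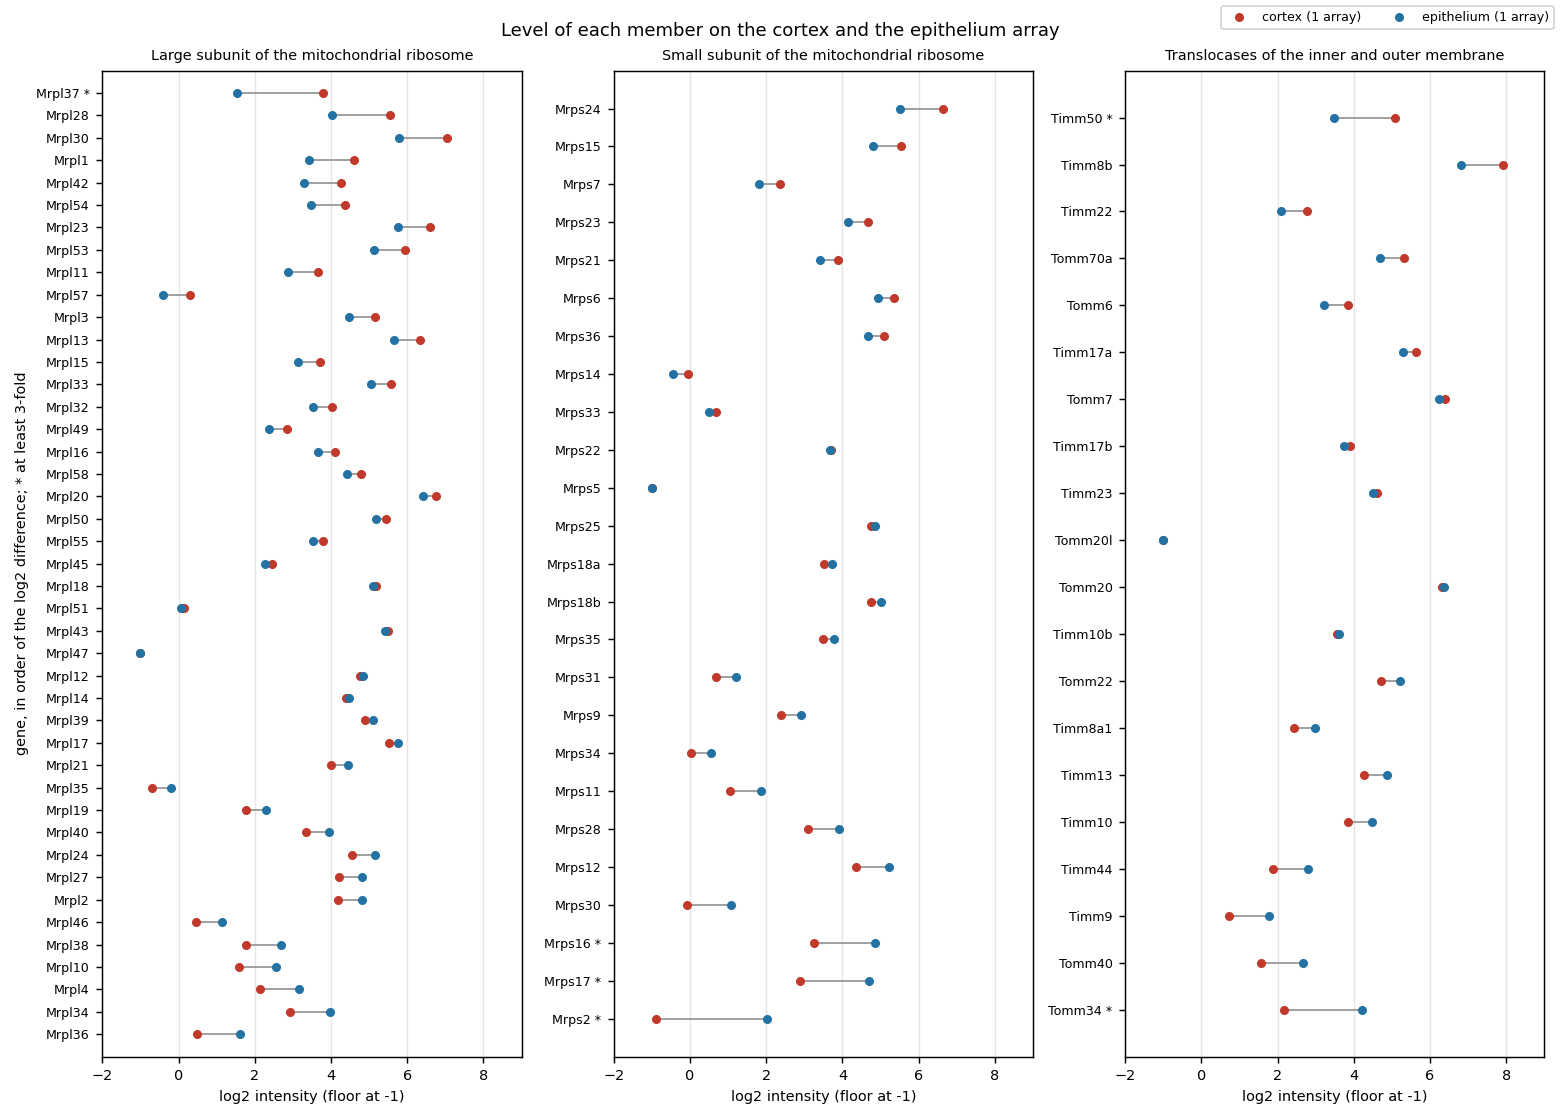
Each row is 1 of the 88 genes, with its log2 intensity on the cortex array (red) and the epithelium array (blue), 1 array each, and rows in the order of the difference. Asterisks mark the 6 genes at least 3-fold different, the pairs of points of most other genes lie close together, and Mrpl47, Mrps5 and Tomm20l sit at the floor.

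Mrps2 had the widest difference. It stood at 0.540 in cortex and 4.06 in epithelium, 7.51-fold. Its cortex value lay between the floor and the median, and raising the floor to the median made the ratio 4.07. Mrps2 encodes a small subunit protein with a bacterial counterpart. Tomm34, whose product is a cytosolic co-chaperone that binds Hsp70 and Hsp90 and preproteins, stood at 4.52 in cortex and 18.6 in epithelium, 4.11-fold. Mrps17 stood at 7.37 and 26.1 (3.55-fold). Mrps16 stood at 9.56 and 29.0, and its 3.04-fold difference lay just past the limit. Both encode small subunit proteins shared with bacteria. In the other direction, Mrpl37, which encodes a large subunit protein without a bacterial counterpart, stood at 13.8 in cortex and 2.89 in epithelium, 4.78-fold. Timm50, the receptor of the Tim23 complex that faces the intermembrane space, stood at 34.0 and 11.2, also 3.04-fold. The next gene below the limit was Mrpl28 at 2.85-fold (46.6 and 16.3). Mrpl37 was still called after quantile and loess normalization, while its log2 difference of 2.26 became 1.33, short of the limit, after centring on ribosomal protein genes. Mrps2, Tomm34, Mrps17 and Mrps16 were called in epithelium in each scaling tried. Centring on ribosomal protein genes moves every gene towards epithelium, so it could not end these calls.

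The upstream sequences of these 6 genes are shown because these are the members past the 3-fold rule, in both directions. Each run covers the 100 bases before the annotated start of the most upstream RefSeq transcript in the table (GRCm38.p6), 5′ to 3′ on the gene's strand. Capitals mark matches, on either strand, to 1 of 5 motifs: CCGGAAG for GABP and other ETS factors, GCGCATG for NRF1, AAGATGG for YY1, the CCAAT box (CCAAT) and the TATA box (TATAAA). The ETS and YY1 motifs can overlap by their shared AAG, but no matches overlap in these stretches.
Mrpl37, chr4:107066867-107066966, minus strand, higher in cortex: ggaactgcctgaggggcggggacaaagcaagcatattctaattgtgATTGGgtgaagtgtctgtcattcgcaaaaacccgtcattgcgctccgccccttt
Timm50, chr7:28312047-28312146, minus strand, higher in cortex: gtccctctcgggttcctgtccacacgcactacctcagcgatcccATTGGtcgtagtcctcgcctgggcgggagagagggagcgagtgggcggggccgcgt
Mrps2, chr2:28467966-28468065, plus strand, higher in epithelium: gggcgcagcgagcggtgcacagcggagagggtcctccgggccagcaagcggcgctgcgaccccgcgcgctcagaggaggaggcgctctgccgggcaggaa
Mrps16, chr14:20393635-20393734, minus strand, higher in epithelium: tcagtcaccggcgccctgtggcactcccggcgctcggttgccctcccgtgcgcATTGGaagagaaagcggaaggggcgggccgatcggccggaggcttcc
Mrps17, chr5:129715397-129715496, plus strand, higher in epithelium: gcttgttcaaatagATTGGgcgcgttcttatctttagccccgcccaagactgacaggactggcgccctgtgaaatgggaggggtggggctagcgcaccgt
Tomm34, chr2:164071170-164071269, minus strand, higher in epithelium: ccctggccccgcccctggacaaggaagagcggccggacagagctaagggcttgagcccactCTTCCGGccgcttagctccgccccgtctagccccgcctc
The CCAAT box stood in this stretch of 4 genes, 2 from each direction. The ETS motif stood in Tomm34 alone among these, and none of the 5 motifs was found in the stretch of Mrps2. No rate over all genes was taken for stretches of 100 bases. In the longer windows described below, Mrpl37, Timm50 and Tomm34 also held the YY1 motif and Mrps17 the TATA box. Mrps16 held the ETS motif in another of its windows.

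Over whole windows of 300 bases (250 before the start and 50 after), 83 windows of 78 members were in the table. The ETS motif was in 28 of them (33.7%), against 12.8% of the 13767 windows of all genes on the array. The NRF1 motif was in 7 (8.43%), against 5.46% of all, and the YY1 motif in 14 (16.9%), against 6.36%. The CCAAT box was in 41.0% of member windows and 37.2% of all, and the TATA box in 6.02% and 11.0%. The windows were not matched for base composition. Within the members, the median log2 difference was 0.09 for the 27 measured genes with the ETS motif and 0.16 for the 48 without it. It was 0.41 for the 14 with the YY1 motif and 0.09 for the 61 without, and -0.24 for the 7 with the NRF1 motif and 0.11 for the 68 without. It was 0.21 for the 30 with the CCAAT box and 0.04 for the 45 without, and -0.60 for the 5 with the TATA box and 0.10 for the 70 without. Relative to other genes of the same brightness, as described below, the order turned for the ETS motif and the CCAAT box. The relative median was -0.16 with the ETS motif and -0.20 without. It was -0.24 with the CCAAT box and -0.16 without. The order held for the YY1 motif (0.01 with, -0.22 without), the NRF1 motif (-0.55 and -0.17) and the TATA box (-0.53 and -0.18). These differences, raw or relative, were not tested, and several rest on few genes. A match describes the letters of the window and is not a binding site.

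With the deposited scaling, 1 of the 43 large subunit genes passed 3-fold towards cortex and none towards epithelium. That 1 gene is 2.33% of them, against 9.41% of all genes called in cortex and 8.17% in epithelium. A further 41 were measured on both arrays and Mrpl47 was at the floor. The counts were the same with loess (9.21% and 7.83% of all genes called) and quantile normalization (8.28% and 9.48%). They were 0 and 6 with ribosomal protein centring, where 4.27% and 20.2% of all genes were called. The median log2 difference of the 42 measured genes was 0.21 with the deposited scaling, but with loess it was -0.085, with quantile normalization -0.23, and with ribosomal protein centring -0.71, so no direction can be given for the subunit. With the deposited scaling 25 genes lay above 0 and 17 below. After Mrpl37 and Mrpl28, the genes farthest towards cortex were Mrpl30 (131 in cortex, 55.2 in epithelium), Mrpl1 of the L1 stalk (24.4 and 10.8), Mrpl42 (19.3 and 9.83) and Mrpl54 (20.8 and 11.1). Mrpl30 and Mrpl1 were 2.38-fold and 2.26-fold higher, while Mrpl42 and Mrpl54 stayed under 2-fold. Mrpl53 (61.9 and 34.9) and Mrpl23 (96.5 and 54.2) followed, both near a log2 difference of 0.83. At the other end stood Mrpl36 (1.40 and 3.07), Mrpl34 (7.56 and 15.8), Mrpl4 (4.40 and 8.87), Mrpl10 (2.99 and 5.88) and Mrpl38 (3.44 and 6.42), with log2 differences from -1.13 to -0.90. Mrpl36 and Mrpl34 are among the smallest proteins of the subunit, and Mrpl10 anchors the stalk that carries Mrpl12. Mrpl12, which recruits translation factors, stood at 27.3 and 28.5 and thus differed by 1.04-fold. Mrpl58, a peptidyl-tRNA hydrolase built into the subunit that rescues stalled ribosomes, stood at 27.6 and 21.3.

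Of the 25 small subunit genes, none was called in cortex and 3 were called in epithelium (Mrps2, Mrps17 and Mrps16). That is 12% of them, against 8.17% of all genes. With ribosomal protein centring 7 of the 25 were called in epithelium, where 20.2% of all genes were. Mrps5 was at the floor on both arrays. The median log2 difference of the 24 measured genes was -0.24, and it was also below 0 with loess (-0.33) and quantile normalization (-0.46). Ribosomal protein centring, which lowers every difference, made it -1.16. With the deposited scaling 14 genes lay below 0 and 10 above. After the called genes, Mrps30 (0.939 in cortex, 2.13 in epithelium), Mrps12 (20.6 and 37.3), Mrps28 (8.50 and 15.2) and Mrps11 (2.06 and 3.61) lay farthest towards epithelium. Mrps12 encodes a protein of the decoding centre. Farthest towards cortex stood Mrps24 (99.5 and 45.8), 2.17-fold, then Mrps15 (46.7 and 28.0) and Mrps7 (5.17 and 3.51). The paralogues Mrps18a (11.5 and 13.3) and Mrps18b (27.1 and 32.4) were close to equal on both arrays. Structures of the ribosome have since placed the products of Mrps30 and Mrps18a in the large subunit and that of Mrps36 in the oxoglutarate dehydrogenase complex. In a regrouping chosen after the values were seen, without these genes the small subunit median was -0.26 (21 measured genes), and with Mrps30 and Mrps18a the large subunit median was 0.13 (44 measured genes). The difference between the subunits was not tested.

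Of the 12 inner membrane translocase genes, 1 passed 3-fold, towards cortex. That is 8.33% of them, against 9.41% of all genes called in cortex and 17.6% in either direction. In the Tim23 complex 4 of 5 genes lay above 0 with the deposited scaling, with a median of 0.15. The median was below 0 in the other scalings, at -0.13 with loess, -0.29 with quantile normalization and -0.78 with ribosomal protein centring, and 3 of the 5 genes lay below equally bright genes. The channel gene Timm23 stood at 24.5 in cortex and 22.5 in epithelium, and its partners Timm17a and Timm17b at 49.5 and 38.8 and at 14.8 and 13.4, ratios of 1.28 and 1.11. Timm50 was 3.04-fold higher in cortex, as given above. Timm44, which docks the import motor on the matrix side, was the exception at 3.70 in cortex and 6.89 in epithelium (1.86-fold). Timm22, the channel of the carrier pathway, stood at 6.76 and 4.27. Of 6 small Tim chaperone genes, 5 lay below 0, none passed 3-fold, and the median was -0.57. It was -0.60 with loess and -0.81 with quantile normalization. Ribosomal protein centring, which lowers every difference, made it -1.50. Timm9 (1.64 and 3.39) and Timm10 (14.4 and 22.1), whose products assemble into 1 hexamer, were 2.06-fold and 1.53-fold higher in epithelium. Timm13 (19.2 and 29.2) and Timm8a1 (5.38 and 7.82) lay in the same direction, and Timm10b (11.8 and 12.2) was nearly equal. Timm8b, which shares its hexamer with Timm13, had 243 in cortex against 112 in epithelium, a log2 difference of 1.11 that shrank to between 0.12 and 0.19 in the other scalings. The median of all 12 genes was 0.04 with the deposited scaling and turned to -0.14 with loess, -0.31 with quantile normalization and -0.89 with ribosomal protein centring.

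Tomm20, a presequence receptor, stood at 79.9 in cortex and 82.2 in epithelium, and Tomm22, the central receptor, at 26.1 and 37.3. Tomm70a, the receptor of carrier proteins, stood at 39.7 and 25.5. The channel gene Tomm40 stood at 2.96 and 6.34, 2.14-fold higher in epithelium and short of the limit. Relative to equally bright genes Tomm20 and Tomm40 lay at -0.96 and -0.93. The log2 difference of Tomm20 was -0.04 with the deposited scaling, -0.77 with loess and -0.90 with quantile normalization, and that of Tomm40 was -1.10, -0.97 and -1.15. The small subunits Tomm6 (14.3 and 9.24) and Tomm7 (84.2 and 75.6) lay slightly towards cortex. Tomm34 was the only 1 of the 8 genes past 3-fold, and Tomm20l was at the floor on both arrays. That 1 gene is 12.5% of them, against 8.17% of all genes called in epithelium and 17.6% in either direction. The median of the 7 measured genes was -0.04 with the deposited scaling and between -0.97 and -0.77 in the other scalings.

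For 6 members the array held 2 probes, and they did not always go together. The probes of Timm9 differed by -1.05 and -1.27, and those of Timm17a by 0.35 and 0.02. The second probe of Timm50 had 8.75 in cortex against 11.7 in epithelium, a difference of -0.42 against 1.61 for the brighter probe, and the mean over both, 0.59, did not pass the limit. Timm50 was also short of 3-fold after quantile (1.26) and loess (1.43) normalization. The probes of Tomm70a (0.64 and -0.28) and Mrpl21 (-0.46 and 0.47) likewise pointed in opposite directions. The second probe of Mrpl3 was at the floor on both arrays, while its brighter probe stood at 35.4 and 22.0. Of the 6 called genes only Timm50 had a second probe.

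Brightness had to be taken into account, because brighter genes as a class were higher in cortex with the deposited scaling. The 85 measured members were therefore set against the other genes of the same brightness, in 20 bins of equal size by mean log2 intensity. The median member lay 0.25 below the median of its bin, with an interquartile range from -0.75 to 0.32, and 52 members lay below their bin median and 33 above. The value was -0.23 after quantile normalization and -0.22 after loess, and -0.30 when probes were averaged. Loess removes a trend with brightness that the bins already take out, so it could hardly change the value. Among the dimmest 29 members the median difference was -0.53, against -0.11 for the 5654 other genes in that range, and 3 were called against 24.4% of the others. Among the middle 28 it was -0.01 against 0.10, with 3 called against 25.4%. Among the brightest 28 it was 0.34 against 0.60, with none called against 24.5%. In each of the 3 ranges the members lay lower than the other genes. Their interquartile range was also narrower in each, at 1.37, 1.07 and 0.77 against 1.76, 1.72 and 1.49. Mean brightness and difference are made from the same 2 values, so this is a description of the arrays.

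**Figure D2:**
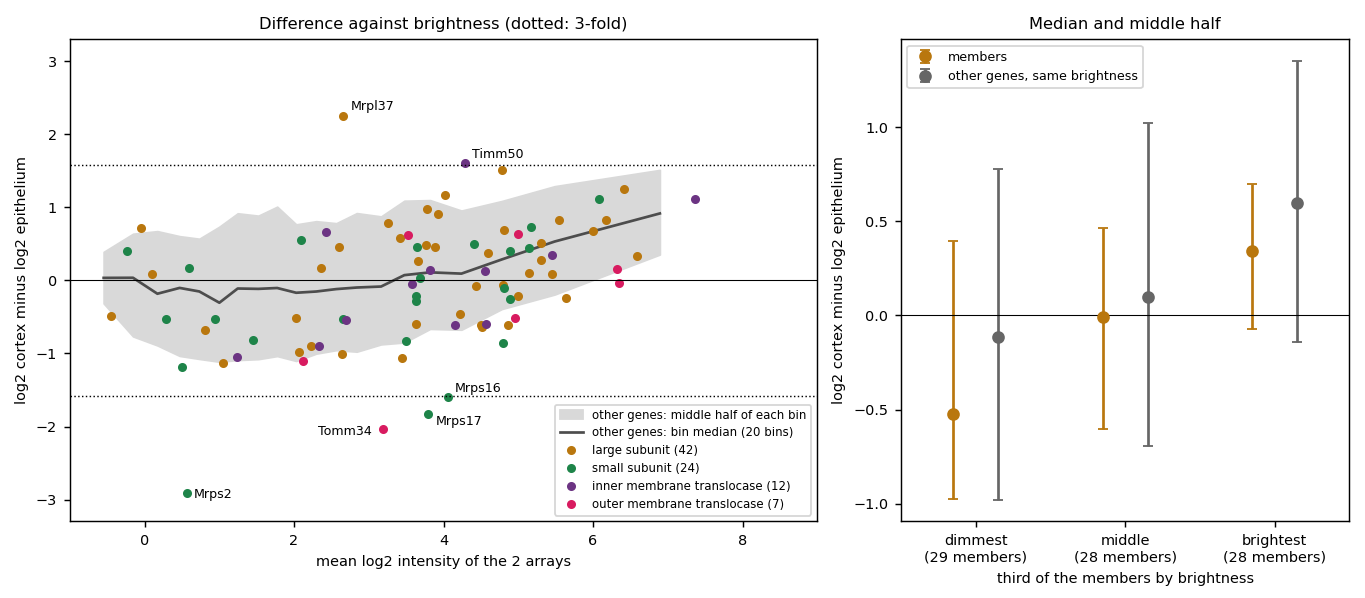
The left panel plots the log2 difference of the 85 measured members against their mean log2 intensity, coloured by complex, with the bin medians of other genes as a line, their interquartile range in grey and 3-fold as dotted lines. The right panel gives medians with interquartile ranges for the members (orange) and other genes of the same brightness (grey), from -0.53 against -0.11 in the dimmest group to 0.34 against 0.60 in the brightest.

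By share of the array's signal, the members took less of the cortex array. Their summed intensity was 2259 in cortex and 1833 in epithelium. The cortex array had more signal in all, and the sum was 0.894% of the intensity of all named genes in cortex and 1.36% in epithelium. Crystallins hold much of the cortex signal, and with alpha, beta and gamma crystallins taken out the shares were 1.10% and 1.44%. The outer membrane translocase went from 0.188% of all signal in epithelium to 0.0998% in cortex, the small subunit from 0.292% to 0.165%, the large subunit from 0.666% to 0.460% and the inner membrane translocases from 0.210% to 0.170%. A share falls when other genes take more of the signal, so it does not by itself give a level.

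Ribosomal proteins with a bacterial counterpart and those added in mitochondria could be compared across both subunits. Of 42 genes of the first kind, 40 were measured, with a median log2 difference of -0.07 and a median of -0.35 relative to equally bright genes. Of the 42, 3 were called in epithelium, which is 7.14%, against 8.17% of all genes. Of 22 genes of the second kind, all were measured, with a median of 0.13 and a median of 0.01 relative to equally bright genes. Of the 22, 1 was called in cortex, Mrpl37, which is 4.55%, against 9.41% of all genes. Relative to equally bright genes the first median was -0.30 and the second 0.06 with quantile normalization. With a floor at the array median they were -0.29 and -0.03. Centring cannot change these relative medians, and loess can hardly do so. In the large subunit the 26 measured shared genes had a relative median of -0.35 and the 15 additions 0.28. In the small subunit the 14 measured shared genes had -0.35 and the 7 additions -0.22, so both lay below 0. These differences were not tested. Mrpl55, Mrps28, Mrps30 and Mrps36 were put in neither kind.

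The cytosolic ribosome and the respiratory chain gave a measure of how related genes behaved on the same arrays. Of 67 cytosolic ribosomal protein genes, 66 were measured, with a median log2 difference of 0.93 and 64 genes above 0, but they lay at 0.05 relative to equally bright genes. Of 70 genes of the respiratory chain and ATP synthase, 68 were measured, with a median of 0.84, 56 genes above 0 and a relative median of 0.00. Both groups were among the other genes that set the bin medians, while the members were left out. This can draw the relative medians of both groups towards 0. The 85 measured members had a median of 0.09, 44 genes above 0 and the relative median of -0.25 given above. The interquartile range of the relative difference was 0.48 in the cytosolic ribosome, 0.73 in the respiratory chain and 1.07 in the members. After loess the 3 medians were -0.24, 0.02 and -0.30, and after quantile normalization -0.18, -0.08 and -0.46. The differences between these groups were not tested.

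Other genes of mitochondrial protein synthesis and import were taken from lists that do not use the symbols above. Of 59 such genes, 2 passed the 3-fold rule towards cortex and 3 towards epithelium, and 54 did not. The share that passed was 8.47%, against 6.82% of the members and 17.6% of all genes. Ribosomal subunits under other symbols did not pass: Dap3 stood at 23.5 on both arrays, Ptcd3 at 6.73 in cortex and 3.74 in epithelium, and Chchd1 at 46.9 and 20.5. Of 7 translation factor genes, none was called in cortex and 1 in epithelium, Guf1 (0.609 and 2.74), whose product is the mitochondrial counterpart of elongation factor LepA. The elongation factor genes Tufm (7.46 and 14.2) and Tsfm (1.35 and 3.29) lay in the same direction without passing. The median of the translation factor genes was -0.72 over 6 measured genes, -0.64 with loess and -0.84 with quantile normalization. Ribosomal protein centring can only lower it. Of 12 ribosome assembly and RNA factors, Noa1, a GTPase of small subunit assembly, was 4.06-fold higher in cortex (11.3 and 2.77), and Rbfa, a small subunit maturation factor, 3.39-fold higher in epithelium (1.25 and 4.25). Rbfa did not pass after loess, nor Noa1 after centring on ribosomal protein genes. Of the 10 measured genes, 9 lay below the median of equally bright genes, all but Noa1. Among 9 mitochondrial tRNA synthetase genes, Ears2, the glutamate enzyme, was 8.57-fold higher in cortex (24.0 and 2.80), the widest difference in these lists. Hars2 (2.81 and 8.22) lay towards epithelium at 2.92-fold. Hars2 was called after quantile normalization (-1.63) and ribosomal protein centring (-2.47), and not after loess (-1.42).

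Among other import genes 10 lay above 0 and 8 below with the deposited scaling. Hspa9, the matrix Hsp70, stood at 43.3 in cortex and 21.5 in epithelium, Pam16 at 23.3 and 9.11, and Dnajc19 at 29.8 and 18.8, while Grpel1, a nucleotide exchange factor of the motor, stood at 20.4 and 20.5. The processing peptidase subunit Pmpcb (57.0 and 35.0) and the inner membrane peptidase Immp1l (196 and 119) were also brighter in cortex, and the intermediate peptidase Mipep (7.17 and 9.62) was not. Immp1l turned to -0.20 with loess and -0.31 with quantile normalization. None of these passed 3-fold. Of the 19 genes in this list only Trap1, the mitochondrial Hsp90, was called, at 0.604 and 2.37. That is 5.26% of them, against 17.6% of all genes called in either direction. Neither Trap1 nor Guf1 was called once the floor was raised to the array median. The sorting gene Samm50 (31.6 and 20.6) and Romo1 (42.6 and 19.4) lay towards cortex, and the chaperonin pair split, with Hspd1 at 14.2 and 21.1 and Hspe1 at 8.94 and 5.08. The median of the 18 measured genes was 0.64 with the deposited scaling, 0.09 with loess, 0.03 with quantile normalization and -0.28 with ribosomal protein centring. Of 9 mitochondrial protease genes none passed. Htra2 (25.5 and 10.2) lay farthest towards cortex, and Afg3l1 (0.530 and 1.31), Yme1l1 (0.733 and 1.73) and Afg3l2 (7.16 and 14.9) farthest towards epithelium.

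**Figure D3:**
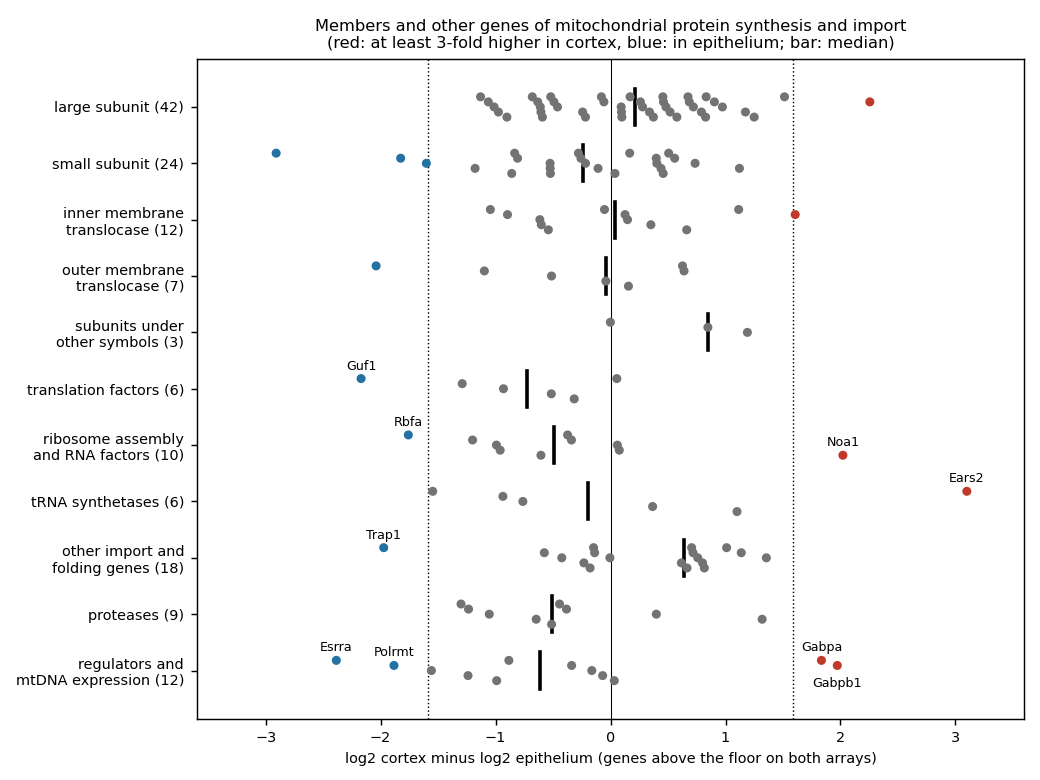
Each point is 1 gene above the floor on both arrays, placed by its log2 difference (cortex minus epithelium), with rows for the 4 complexes and 7 further lists, a bar at each median and 3-fold as dotted lines. The GABP subunit genes Gabpa and Gabpb1, Noa1 and Ears2 stand towards cortex, and Esrra, Polrmt, Guf1, Trap1 and Rbfa towards epithelium.

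Regulators of these genes and of mitochondrial DNA expression went both ways. Of 14 genes, 2 were called in cortex and 2 in epithelium, so that 10 did not pass. The share called was 28.6%, against 17.6% of all genes. With the floor at the array median 1 was called in cortex and 1 in epithelium, where 8.07% and 6.40% of all genes were. Gabpa (3.38 in cortex, 0.949 in epithelium) and Gabpb1 (2.88 and 0.734) encode the subunits of GABP, an ETS factor that activates many nuclear genes of mitochondria, and were 3.57-fold and 3.92-fold higher in cortex. A second probe of Gabpb1 gave floor values in both tissues, and Gabpb1 was no longer called once the floor was raised to the array median. Neither GABP gene passed after centring on ribosomal protein genes. Esrra, a nuclear receptor that works with PGC-1 coactivators, stood at 0.534 and 2.79 (5.23-fold higher in epithelium), and the higher floor ended its call as well. Polrmt, the RNA polymerase of mitochondria, stood at 4.40 and 16.2 (3.69-fold). It was called with loess, with quantile normalization and with the higher floor, and the centring could not end its call. The coactivator genes Ppargc1b (0.660 and 1.94) and Pprc1 (2.13 and 5.02) lay towards epithelium below the limit with the deposited scaling. So did the mitochondrial DNA packaging factor gene Tfam (11.8 and 23.5). Ppargc1b was called with quantile normalization (-1.61), and the higher floor cut it from 2.95-fold to 1.95-fold. Nrf1 (0.541 and 0.605) differed by 1.12-fold, but it lay just above the floor on both arrays, so this ratio does not show an equal level. Of the 12 measured genes 9 lay below 0, with a median of -0.61. It was -0.57 with loess and -0.71 with quantile normalization, and the centring, which lowers every difference, made it -1.54. With the floor at the array median only 6 genes were measured, with a median of -0.94.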

How the data were processed

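The deposited series table holds 1 intensity per probe for each of 2 one-colour CodeLink arrays, with 19819 probes. Per the labels, images were analysed with CodeLink software. What the authors did to correct background and scale the arrays is not stated in these sources. The deposited intensities are linear, with medians of 0.998 and some values below 0. Probes missing on either array were dropped. Gene symbols came from the platform annotation, and all 88 members matched RefSeq (GRCm38.p6) by Entrez identifier. Values below 0.5 of the array median were raised to it, log2 was taken, and the probe with the highest mean was used. Detection calls were not used, and the number of arrays limits the precision.

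The 3-fold rule replaced a test, since each group has 1 array. Members were compared with other genes in 20 brightness bins. Alternatives were quantile normalization, loess (span 0.3), centring on cytosolic ribosomal protein genes, 2 other floors, averaged probes, fold limits of 2 and 5, and no brightness minimum. The named genes are all called members, the 10 highest and 10 lowest, all Tim and Tom genes, those with 2 probes, and the called or most different genes of each list. Other genes given with values were chosen after their values were seen. The members, lists and motifs were chosen with earlier results of these data known, and the NRF1 and YY1 motifs were shortened after longer forms had been counted. The steps were tested on simulated data. The analysis used Python 3.11.15, numpy 2.4.6, pandas 2.3.3, statsmodels 0.14.6 and matplotlib 3.10.9.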

Additional observations from a re-analysis of the deposited data

How the results depend on the processing

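Each result rests on 1 array per tissue, so no setting can show how mice would vary. Members called higher in cortex numbered 2 as deposited, 1 after quantile normalization, loess or averaging of probes, 0 after centring on ribosomal protein genes, and 7 and 0 with fold limits of 2 and 5. Those called higher in epithelium numbered 4, but 17 after centring on ribosomal protein genes, and 10 and 1 with those fold limits. Over all genes, 20.2% were called in epithelium after that centring and 15.3% at 2-fold, against 19.3% and 11.4% of the members, and in cortex 16.4% of all genes and 7.95% of the members passed 2-fold. The median of all members (0.09) turned to -0.46 after quantile normalization, -0.30 after loess and -0.83 after centring. The large subunit median (0.21) turned to -0.23, -0.085 and -0.71 in the same order, and the inner membrane translocase median (0.04) to -0.31, -0.14 and -0.89. The outer membrane translocase median (-0.04) moved to -0.90, -0.77 and -0.97. The small subunit median (-0.24) moved to -1.16 after centring. The median relative to equally bright genes stayed between -0.30 and -0.20 in the 6 settings in which it was recomputed. Floors at the array median and at 0.25 of it left the same 6 members called. Centring subtracts 1 value from every gene, so it cannot change the relative median. Loess removes a trend with brightness that the bins already take out, so it can hardly change it. The cause of the other changes was not tested. No paired analysis was possible because each group has 1 sample.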
